A study of Mus musculus with 2 samples.

Results

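Chemokine and migration receptors carry the signals that hold blood cells in the marrow or let them leave it. The 7 genes described here are Cxcr4, Cxcr2, Ccr1, Ccr2, Cx3cr1, Ccr9 and S1pr1, and they were taken by name from the 20660 genes that RefSeq accessions name on the array, with every probe of each gene included. All 7 were on the array, Cx3cr1 with 2 probes and the others with 1 probe each. RNA came from pre CFU-E, erythroid progenitors sorted as Lin- cells that had little or no FCγRII/III, were CD41Lo, c-Kit+ and Sca1-, and carried endoglin and CD150. The Lin gate used antibodies to Mac1, Gr1, CD3e, CD45R/B220 and Ter119, which bind mature myeloid cells, T cells, B cells and erythroblasts, so the gate is meant to leave these cells out. The sort was made from the bone marrow of C57BL/6 mice, either WT or ESAM-KO, the latter a line without the endothelial cell-selective adhesion molecule in any tissue. Mice of both genotypes were 8 to 12 weeks old and had received a single 5-FU injection of 120 mg/kg 8 days earlier, so no untreated cells were compared. Bone marrow of 3 mice was pooled for each genotype and measured on 1 array. No value therefore has an SD or a p-value. Genotype cannot be told apart from chance differences in pooling, sorting or RNA amplification. In sorted bulk RNA, fewer cells of a type and less RNA per cell cannot be told apart either.

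These receptors span the membrane repeatedly and signal mainly through inhibitory G proteins to the machinery of directed movement. Cxcr4 binds Cxcl12 from marrow stroma and retains stem cells, progenitors and neutrophils, whereas S1pr1 senses sphingosine 1-phosphate, which is abundant in blood, and drives exit of lymphocytes and progenitors. Cxcr2 binds neutrophil-attracting chemokines such as Cxcl1 and Cxcl2, Ccr2 and Cx3cr1 mark monocyte subsets, Ccr1 is found on several myeloid cells, and Ccr9 guides early lymphoid cells toward Ccl25.

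RefSeq promoter windows (GRCm38.p6) matched 6 of the 7 genes by symbol, all but S1pr1. The 250 bases before the annotated start are shown 5′ to 3′ for the 3 of them that were measured on both arrays, since these include a receptor that was lower past 2-fold in ESAM-KO and one that was higher by almost as much. Capitals mark a GATA site (AGATAA or AGATAG or TGATAA or TGATAG) or the core of a PU.1 site (GAGGAA), searched on both strands. GATA factors and PU.1 are lineage factors of erythroid and of myeloid cells.
Cxcr4, minus strand, chr1:128592300-128592549: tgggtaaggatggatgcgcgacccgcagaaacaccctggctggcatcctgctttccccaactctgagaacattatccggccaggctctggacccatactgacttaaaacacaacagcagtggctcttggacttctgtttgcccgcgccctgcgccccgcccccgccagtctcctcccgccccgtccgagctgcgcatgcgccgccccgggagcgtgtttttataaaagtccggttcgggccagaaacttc
Cxcr2, plus strand, chr1:74153744-74153993: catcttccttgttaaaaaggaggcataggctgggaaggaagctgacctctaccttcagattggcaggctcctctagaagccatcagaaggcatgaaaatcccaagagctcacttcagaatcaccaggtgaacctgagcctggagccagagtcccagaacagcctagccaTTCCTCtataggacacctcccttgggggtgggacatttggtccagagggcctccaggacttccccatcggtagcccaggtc
Cx3cr1, minus strand, chr9:120068297-120068546: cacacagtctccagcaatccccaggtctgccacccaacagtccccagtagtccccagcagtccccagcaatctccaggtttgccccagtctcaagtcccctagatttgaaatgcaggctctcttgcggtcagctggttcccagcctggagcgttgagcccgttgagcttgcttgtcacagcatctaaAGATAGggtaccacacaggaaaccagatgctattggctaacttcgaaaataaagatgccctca
The window of Cxcr2 held 1 PU.1 core on the minus strand, beginning 81 bases before the start, and no GATA site. The window of Cx3cr1 held 1 GATA site, beginning 63 bases before the start, and no PU.1 core. That of Cxcr4 held neither. Of 32851 windows of this length, 26.5% held a GATA site and 23.3% a PU.1 core, so a match in one window is common and is a description of its letters only.

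Signal is the processed intensity of a spot. For ratios, the log2 signal was set relative to the 75th percentile of its own array, 201.4 in WT and 251.1 in ESAM-KO. The scaling shifts all log2 ratios (ESAM-KO over WT) down by 0.32. By the scanner software's flag, 57.3% of WT spots and 61.1% of ESAM-KO spots were well above background. The targeted gene, Esam, read 27.4 and 20.6, with a log2 ratio of -0.73 ± 0.31 (error by the scanner software), within 2-fold and therefore a weak check of the genotypes. Every error given below is likewise that of the scanner software, and it covers the spot and not the mouse.

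Of the 7 receptors, Cxcr4, Cxcr2, Cx3cr1 and S1pr1 were well above background on both arrays, whereas Ccr1, Ccr2 and Ccr9 were not so on either. Among the 4 that could be compared, S1pr1 and Cxcr2 were lower past 2-fold in ESAM-KO, Cxcr4 was lower within 2-fold, and Cx3cr1 was higher just within 2-fold. Thus 2 of 4 were lower past the criterion and 0 of 4 higher. Of the 14136 named genes with a ratio, 8.43% were lower and 6.99% higher by more than 2-fold. Only 4 members enter, so their share gives no basis for a statement about the group. Their median log2 ratio was -1.01, and that of all genes measured on both arrays was -0.02.

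**Figure D1:**
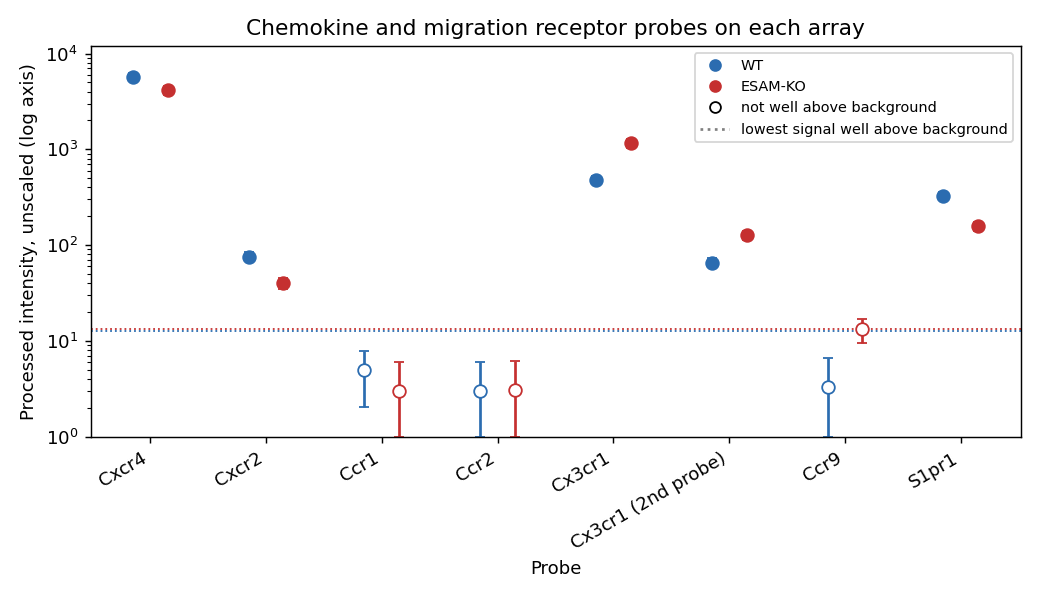
Processed intensity (log axis, unscaled) of the 8 probes of the 7 receptors on the WT and the ESAM-KO array, with bars for the scanner software's error and open circles for signals not well above background. Ccr1, Ccr2 and Ccr9 lie near or below the lowest signals well above background (dotted, 12.6 for WT and 13.2 for ESAM-KO), and the other 5 probes lie above them.

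S1pr1 (NM_007901), the egress receptor, read 326 ± 33 in WT and 157 ± 16 in ESAM-KO. The WT signal was the higher by more than both errors. The log2 ratio was -1.38 ± 0.21, or 2.60-fold lower in ESAM-KO, and 3.95% of the 12615 genes measured on both arrays had a lower ratio. S1pr1 was past 2-fold under each of the 12 other scalings, corrections, filters and probe summaries, and came closest to the criterion without scaling, at -1.06. With 1 probe detected on both arrays, its ratio could not change with the filters, the kept outliers, the probe mean or the signal floor. The series table holds the same intensities and gave -1.37.

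Cxcr2 (NM_009909) read 75.9 ± 8.2 in WT and 39.98 ± 5.2 in ESAM-KO. Both signals were above background but dim for these arrays. The log2 ratio was -1.24 ± 0.24, or 2.37-fold lower in ESAM-KO, and 4.92% of the genes measured on both arrays had a lower ratio. The position of Cxcr2 past 2-fold depended on the processing, since the log2 ratio was -0.92 without scaling and -0.66 with normexp and quantile normalization.

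Cxcr4 (NM_009911), the marrow retention receptor, read 5689 ± 569 in WT and 4127 ± 413 in ESAM-KO. Its log2 ratio was -0.78 ± 0.20, or 1.72-fold lower in ESAM-KO, and lay between -0.91 and -0.46 under the alternatives, always within 2-fold. The signal was in the upper part of the range on both arrays, where the spot itself adds little error.

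Cx3cr1 (NM_009987), the fractalkine receptor, was the one receptor of the 4 that was higher in ESAM-KO. Its brighter probe read 477 ± 48 in WT against 1159.9 ± 116 in ESAM-KO, for a log2 ratio of 0.96 ± 0.20 or 1.95-fold. Its dimmer probe read 65.7 ± 7.4 and 127 ± 13, a log2 ratio of 0.63 ± 0.22. Both probes thus had the same direction and stayed within 2-fold. Without scaling the brighter probe was past 2-fold, at 1.28, and the dimmer one was at 0.95. With the main scaling, the mean of both probes was 0.80.

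The remaining members gave no ratio. Ccr1 (NM_009912) read 4.91 ± 2.89 in WT and 3.0 ± 3.0 in ESAM-KO, so that the error was a large share of the first signal and as large as the second. Ccr2 (NM_009915) read 2.98 ± 2.96 and 3.10 ± 3.11, each about as large as its error. Ccr9 (NM_009913) read 3.29 ± 3.30 and 13.2 ± 3.7, the latter close to the lowest ESAM-KO signal well above background and not itself called so.

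Repeated spots of other probes give the size of spot noise, as each member probe was printed once. Among probes with at least 8 usable spots and a signal between 40 and 80, as for Cxcr2, the log2 ratio had a median SD of 0.21 between spots (27 probes). Between 200 and 1000, as for S1pr1 and the brighter Cx3cr1 probe, the median SD was 0.092 (66 probes), and above 1000, as for Cxcr4, it was 0.050 (47 probes). The ratios of all 4 receptors exceeded these spreads, which leave out the differences between pools, sorts and amplifications.

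**Figure D2:**
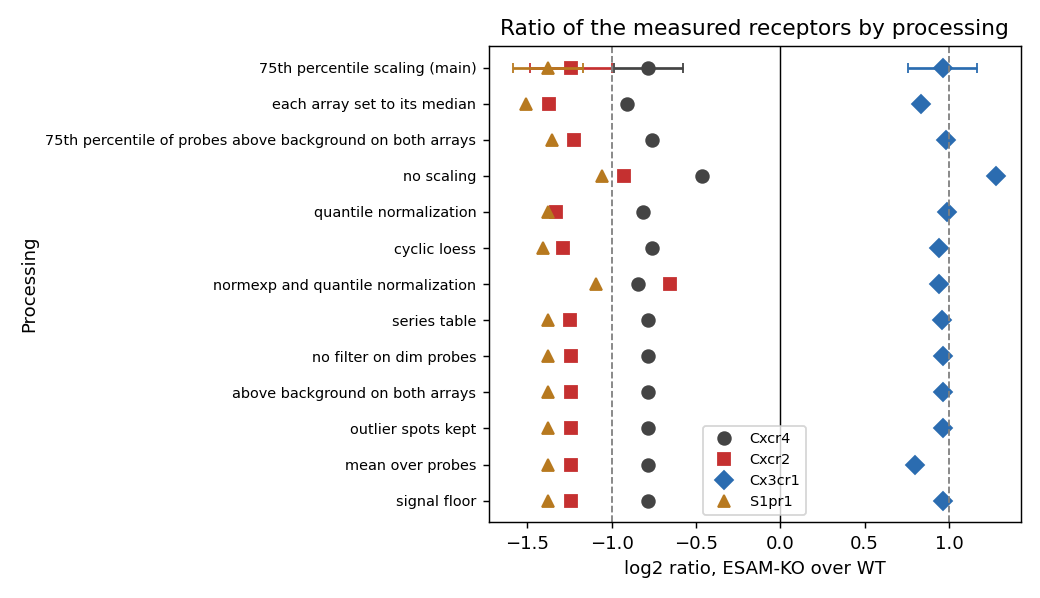
log2 ratio of ESAM-KO over WT (horizontal axis) for the 4 receptors measured on both arrays under the main scaling, with bars for the scanner software's error, and under 12 other ways of processing (vertical axis), with dashed lines at 2-fold. S1pr1, Cxcr2 and Cxcr4 stay below 0 and Cx3cr1 above 0 in every row, and Cxcr2 moves most, from -1.37 to -0.66.

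Ccr9, Ccr1 and Ccr2 lie on chromosome 9 in a cluster with other chemokine receptor genes. Of its chemokine receptor genes, Cxcr6 and Ccr3 were well above background on both arrays, with log2 ratios of 0.55 ± 0.23 and -0.17 ± 0.43. The dimmer probe of Cxcr6 read 19.8 and 62.6, a log2 ratio of 1.34 ± 0.32. On chromosome 1, Cxcr1, the protein-coding gene next to Cxcr2, read 7.13 in WT, not well above background, and 19.3 in ESAM-KO, at least 1.23-fold higher.

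Outside the 7 members, 13 further chemokine receptor genes were examined, and 7 of them were not well above background on either array. The 6 with a ratio were all within 2-fold, 0 of them higher and 0 lower past it, with a median log2 ratio of -0.09 over the 4 measured on both arrays. Of the 4 atypical receptors, which scavenge chemokines without G protein signals, 2 had a ratio, each a bound. Ackr1, the Duffy antigen receptor of erythroid cells, read 7.02 in WT and 41.0 in ESAM-KO. This is at least a 2.62-fold higher signal in ESAM-KO, a bound that was within 2-fold with normexp, at a log2 ratio of 0.40. Ackr2 went the other way, at least 1.92-fold lower in ESAM-KO, and was past 2-fold with median scaling and with quantile normalization.

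Of the 4 other S1P receptors, 2 were lower in ESAM-KO past 2-fold and 0 higher. S1pr4, a receptor of hematopoietic cells, read 614 ± 61 in WT against 226 ± 23 in ESAM-KO, for a log2 ratio of -1.76 ± 0.21. S1pr2, which opposes migration, read 72.0 in WT and 6.53 in ESAM-KO, where it was not well above background. It was at least 6.82-fold lower, and within 2-fold only with normexp, at -0.96. S1pr3 and S1pr5 were not well above background in WT and were at least 1.11-fold and 1.79-fold higher in ESAM-KO, S1pr5 past 2-fold without scaling and without the filter on dim probes, at 1.16 and 1.13.

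Of 10 genes that make, degrade or transport S1P, 9 were measured on both arrays, with a median log2 ratio of 0.20, 1 past 2-fold higher and 0 lower. The kinases Sphk1 and Sphk2 were at -0.26 ± 0.20 and 0.33 ± 0.20. Mfsd2b, the S1P exporter of red cells, read 8583 and 9200.5 at its brighter probe, a log2 ratio of -0.22 ± 0.20. The dimmer Mfsd2b probe read 507 and 392, a log2 ratio of -0.69 ± 0.20. The phosphatase gene Plpp1 read 27.3 and 110.3, a log2 ratio of 1.70 ± 0.27 that was within 2-fold with normexp, at 0.82. Its other probe lacked the flag for signal well above background on both arrays.

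Among 17 chemokines that bind the members, 12 had a ratio, and 4 were lower and 2 higher in ESAM-KO by more than 2-fold, with a median log2 ratio of -0.24 over the 7 measured on both arrays. Cxcl1, a ligand of Cxcr2, read 154 in WT against 57.1 in ESAM-KO, for a log2 ratio of -1.75 ± 0.22. The other 3 that were lower rested on a bound, as they were not well above background in ESAM-KO. Ccl3 and Ccl9, ligands of Ccr1, were at least 5.18-fold and 3.52-fold lower, and Ppbp, a platelet chemokine that binds Cxcr2, at least 2.17-fold lower. Cxcl2, also a ligand of Cxcr2, and Cxcl12, the ligand of Cxcr4, were not well above background in WT and were at least 2.81-fold and 2.29-fold higher in ESAM-KO. With normexp, Cxcl1 was still past 2-fold, at -1.14, whereas the other 5 were within it. Ppbp was also within 2-fold without scaling, at -0.80, and with a signal floor, at -0.86. The second Cxcl12 probe lacked that flag on both arrays.

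Cx3cl1, the ligand of Cx3cr1, read 153 and 159.8, a log2 ratio of -0.25 ± 0.21. The probes of Ccl25, the ligand of Ccr9, differed in direction. The brighter one read 413 and 892, a log2 ratio of 0.79 ± 0.20 that was past 2-fold without scaling, at 1.11. The dimmer one, which represents a non-coding transcript (NR_033527), read 48.3 and 43.5, a log2 ratio of -0.47 ± 0.25.

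Downstream of the receptors, 7 of 8 G protein subunit genes were measured on both arrays, with a median log2 ratio of -0.12. Gng2, a gamma subunit, read 19.3 in WT against 228 in ESAM-KO, for a log2 ratio of 3.25 ± 0.30, and was past 2-fold with normexp as well, at 1.56. It was the only one of the 7 past 2-fold at its brightest probe, and it has 1 probe that was near background in WT. Gng12, another gamma subunit, was at -0.72 ± 0.20 at its brighter probe and past 2-fold at the dimmer one, at -1.26 ± 0.24. Gnai2, the inhibitory alpha subunit of many blood cells, was at 0.21 ± 0.20.

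Receptor signals are ended by arrestins, G protein-coupled receptor kinases and RGS proteins. Of 15 such genes, 13 had a ratio, 2 were lower by more than 2-fold and 0 higher, with a median of -0.34 over the 12 measured on both arrays. Rgs16, which speeds the shut-off of inhibitory G proteins, read 1078 ± 108 in WT and 94.2 ± 9.9 in ESAM-KO, 14.3-fold lower with a log2 ratio of -3.83 ± 0.21, and -3.10 with normexp. Rgs19 had a log2 ratio of -1.32 ± 0.21 at its brightest probe, but 0.14 and 0.45 at its other probes and -0.24 for the mean of the probes. Rgs2 was at -0.43 ± 0.20 at its brighter probe, and its dimmer probe was at least 2.97-fold lower. The arrestin genes were within 2-fold, Arrb1 at 0.15 ± 0.20 and Arrb2 at 0.98 ± 0.20, and so was Cd69, which removes S1pr1 from the cell surface, at 0.10. Without scaling Arrb2 was past 2-fold, at 1.30, the 1 gene of the list that was then higher.

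Of 17 genes of the migration machinery, 16 were measured on both arrays and 0 were past 2-fold in either direction. Their log2 ratios lay between -0.82 and 0.82, with a median of -0.27, and 12 were below 0. The ends of this range were Dock2, an exchange factor for Rac, at -0.82 ± 0.21 with -0.96 at its other probe, and Pik3cg, the kinase activated by G protein subunits, at 0.82 ± 0.22 with 0.81 at its other probe. Plcb2, a phospholipase activated by G protein subunits, differed between its probes, with 0.13 ± 0.20 at the brighter and -1.48 ± 0.29 at the dimmer, the latter 2.79-fold lower. Without scaling, 1 gene of the list was higher past 2-fold, Pik3cg at 1.14.

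Receptors for other leukocyte attractants were examined as 10 genes, of which 8 had a ratio, 4 lower and 1 higher by more than 2-fold, with a median of -0.69 over the 4 measured on both arrays. Ltb4r1, the leukotriene B4 receptor, read 143 in WT against 16.9 in ESAM-KO, for a log2 ratio of -3.40 ± 0.34. The formyl peptide receptors Fpr1 and Fpr2 read 92.5 and 71.2 in WT, lacked the flag for signal well above background in ESAM-KO, and were at least 8.77-fold and 6.75-fold lower. C3ar1, the receptor of the complement fragment C3a, was at -1.36 ± 0.27, and Gpr183, a receptor of oxysterols, was at least 2.31-fold higher. With normexp, Ltb4r1 and Fpr1 were still past 2-fold, at -1.48 and -1.14, and Fpr2, C3ar1 and Gpr183 were within it, at -0.97, -0.57 and 0.37.

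**Figure D3:**
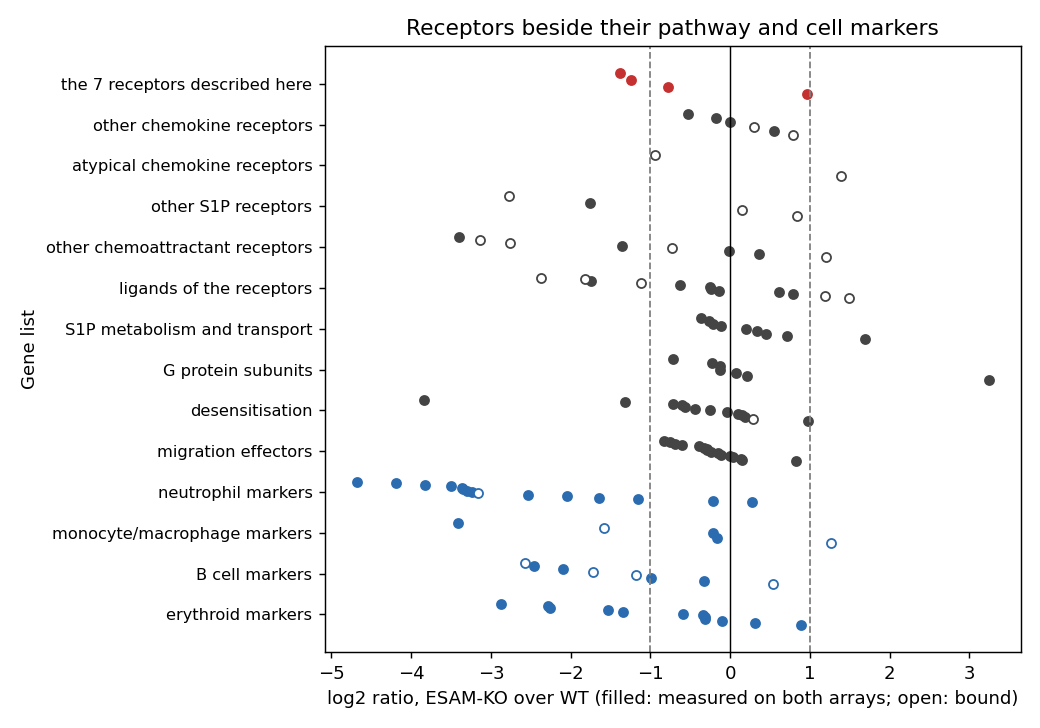
log2 ratio of ESAM-KO over WT (horizontal axis) for each gene with a ratio, by gene list (vertical axis), with the receptors described here in red, pathway lists in dark grey and cell markers in blue, filled for genes measured on both arrays and open for bounds, and dashed lines at 2-fold. The receptors described here, S1P and other chemoattractant receptors, ligands, desensitisation genes and every list of cell markers reach below -1. Migration effectors lie between -0.82 and 0.82, and 13 of 15 neutrophil markers lie below -1.

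Markers of other blood cells differed between the same arrays. Neutrophils are known to express Cxcr2, Fpr1, Fpr2 and Ltb4r1, and of 15 markers of these cells 13 were lower past 2-fold in ESAM-KO and 0 higher. Their median log2 ratio was -3.27 over the 14 measured on both arrays, as in Elane, which read 335 and 42.3. Itgam and Csf3r, at -0.21 and 0.28, were within 2-fold, although the dimmer probes of Itgam were at -1.54 and -0.55. The probes of Itgam differed widely in level, with 76375.5 in WT at the brightest and 270 and 81.7 at the others. The summed signal of the 15 markers, in units of the 75th percentile of the array, was 927 in WT and 669 in ESAM-KO, most of it from Itgam and Csf3r. Of the 15, only Mmp9 was not well above background in ESAM-KO. The Lin gate, with Mac1 and Gr1, is meant to remove mature neutrophils, and the part of such cells in the ratios of Cxcr2, Fpr1, Fpr2 and Ltb4r1 was not tested.

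Of the 10 monocyte and macrophage markers found on the array, 4 were not well above background on either array, among them Irf8 and Itgax. Of the 5 with a ratio, Lyz2 and F13a1 were lower by more than 2-fold, Ctss was higher (F13a1 and Ctss within 2-fold with normexp, at -0.55 and 0.26), and Csf1r and Cd14 were within 2-fold, at -0.16 and -0.21. The summed signal was 33.6 in WT and 29.5 in ESAM-KO. The part of monocytes in the ratio of Cx3cr1 was not tested.

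Of 10 B cell markers, 8 had a ratio, 5 of them lower by more than 2-fold and 0 higher, and the summed signal was 2.96 in WT and 0.872 in ESAM-KO. Vpreb1 read 256 and 58.2, and Ms4a1 and Rag1 were not well above background on either array. Of 10 T and NK cell markers, 6 had a ratio, 2 of them lower past 2-fold and 0 higher, with a median of 0.11 over the 5 measured on both arrays. Those lower were Il2rb, at -2.01, and Cd3d, at least 3.75-fold lower. The summed signal was 13.8 in WT and 15.2 in ESAM-KO, most of it from the brighter probe of Nkg7. That probe was at 0.11 and the dimmer one at -0.45. S1pr1 is known from lymphocytes as well. The Lin gate, with CD45R/B220 and CD3e, is meant to remove B and T cells, and their part in the ratio of S1pr1 was not tested. All 12 erythroid markers were above background on both arrays, 5 of them lower by more than 2-fold and 0 higher. Their summed signal was 587 in WT and 220.1 in ESAM-KO. Hba-a1 and Slc4a1, at log2 ratios of -2.26 and -2.87, made up most of the WT sum and most of the difference between the sums. Gata1, Klf1 and Epor were at -0.34, -0.32 and -0.10. Transcripts that define erythroid progenitors were thus present on both arrays, and so were those of neutrophils.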

How the data were processed

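RNA of sorted pre CFU-E from 5-FU-treated mice, pooled from 3 mice per genotype, was amplified, labelled with Cy3 and hybridised to 1 array per genotype. The authors deposited the spot intensity given by Agilent Feature Extraction 10.10.1.1, with background subtracted within the array and no scaling between arrays, and a series table whose intensity matched it within 0.6% for 100% of the spots on both arrays. Control spots and 254 spots with outlier flags were left out, and no spot was saturated. Accessions were matched without versions to RefSeq (GRCm38.p6, for names and gene order only, as the array design used another build), which named 27235 probes, or 48.9%. For genes with several probes, the one brightest on average stands for the gene. Detection of a probe required over 50% of its spots to be well above background. With detection on a single array, a bound was computed, for which the dim array's value was its own signal or the least detected signal on that array, whichever was higher. Bounds in the wrong direction and probes dim on both arrays have no ratio. The criterion was the study's 2-fold difference, with no test.

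The text names all probes of the 7 receptors, Esam, genes past 2-fold in the fixed pathway lists (up to 4 each way), Cxcl12, Ccl25, Cx3cl1 and the S1P receptors. The marker genes and the genes within 2-fold named as examples, the second Cxcr6 probe and the gene next to Cxcr2 were chosen once their values had been seen. The receptors and the lists were chosen with earlier results of these data known. As alternatives, arrays were left unscaled, scaled to the median or to the 75th percentile of detected probes, or normalized by quantiles or cyclic loess. Others were normexp (offset of 50, on median spot signals) with quantile normalization, the series table, other filters, outliers kept, the mean of probes, a signal floor and a threshold of 3-fold. Precision is limited by the number of arrays. Python 3.11.15, pandas 2.3.3, R 4.3.3 and limma 3.58.1 were used, and the counting was tested on simulated data. Some listed genes are not reported here one by one.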

Additional observations from a re-analysis of the deposited data

How the results depend on the processing

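The number of receptors past 2-fold, 2 of 7, was 1 with normexp and quantile normalization (S1pr1), 4 with no filter on dim probes (Ccr1 and Ccr9 added) and 0 at 3-fold. It was 2 under the other settings, which were S1pr1 and Cxcr2 except without scaling, where they were S1pr1 and Cx3cr1. Without scaling, the log2 ratios of Cxcr4, Cxcr2, Cx3cr1 and S1pr1 were -0.46, -0.92, 1.28 and -1.06, a shift that by construction is the same for all genes. With normexp, whose offset shrinks the ratios of dim probes, Cxcr2 and S1pr1 were at -0.66 and -1.09. With no filter, Ccr1, Ccr2 and Ccr9 read -1.03, -0.26 and 1.69, ratios between signals within or near background. None of the 4 measured receptors changed direction under any setting. The filters on dim probes, the kept outliers and the signal floor left the ratios of all 4 as they were. The number of all named genes past 2-fold, 2179, was 722 with normexp, 4108 with no filter and 821 at 3-fold.

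For 62 other named genes, 629 of 724 alternative values stayed within the error that the scanner software gives, 95 went beyond it, and 0 genes past 2-fold changed sign. The numbers of genes past 2-fold in each direction in the pathway lists other than the receptors themselves stayed within 1.5 times of the value given for 189 of 216 alternative counts, and 27 moved further. The median of all genes was -0.02, and 0.30 without scaling and -0.15 with median scaling. The signal over background limits Ccr1, Ccr2 and Ccr9, for which a difference was not detectable on these arrays. No paired analysis was possible because there is 1 array per genotype.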

Other observations

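Other lists of cell markers were also read on these arrays, and whether their signal came from other cells or from the progenitors was not tested. Of 10 markers of mast cells, basophils and eosinophils, 7 had a ratio, 4 of them lower past 2-fold in ESAM-KO and 1 higher. Those lower included Prg2 and Epx, granule proteins of eosinophils, at log2 ratios of -3.76 and -4.24, and the 1 that was higher was Ms4a2, not well above background in WT and at least 2.61-fold higher. Of 8 stem and early progenitor markers, 6 had a ratio, 2 higher and 0 lower by more than 2-fold. Mycn, a growth regulator of stem cells, read 15.7 in WT and 79.0 in ESAM-KO, and Hlf, a stem cell transcription factor, was not well above background in WT, with an increase of at least 7.58-fold. Cd34, a progenitor surface protein, was at 0.18 at the probe brighter on average and -1.38 at the other. The latter was the brighter in WT, at 46.1 against 28.2, and the dimmer in ESAM-KO, at 22.0 against 39.9. With normexp, Ms4a2 and Mycn were within 2-fold, at 0.45 and 0.73.

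Of 8 megakaryocyte and platelet markers, 2 were past 2-fold in each direction. Vwf, the platelet adhesion ligand, was at 1.28 (0.74 with normexp) and Treml1, a platelet granule receptor, at -1.93. The dimmer probe of Itgb3, an integrin of platelets, was at least 6.34-fold higher, against 0.24 at the brighter. The 8 endothelial and stromal markers gave 6 ratios, with 1 each way. In the list of 7 plasmacytoid dendritic cell markers, which includes Ccr9, 5 were measured on both arrays and 0 were past 2-fold at their brightest probe, whereas the dimmer probe of Tcf4 was at -1.02. Siglech, the brightest of them, read 6948 in WT and 8383 in ESAM-KO. Its other probe lacked the flag for signal well above background on both arrays. Of the 7 genes of the sort, Ly6a, which encodes Sca1, was at least 5.79-fold lower in ESAM-KO (within 2-fold with normexp, at -0.78), and the other 5 with a ratio were within 2-fold.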
